A study of Homo sapiens with 2 samples.

Results

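The hormone receptors ESR1 and PGR and the transcription factors GATA3, FOXA1, XBP1, SPDEF, TFAP2A, TFAP2C and MYB are regulators of the luminal lineage of breast epithelium. These 9 genes were taken by name, and all 9 were found among the 18781 genes of the deposited table. RNA bound to antibody-coated beads was measured by RNA-seq after RNA immunoprecipitation (RIP) from T47D cells, an established cell line of luminal, hormone-receptor-positive breast cancer. In 1 library, called IMP1-RIP here, the beads carried an antibody against IMP1, an RNA-binding protein, and in the other, IgG-RIP, they carried normal IgG, which measures the RNA that stays on the beads without that antibody. Both libraries came from WT T47D cells grown in serum-containing medium, for which the labels give no drug or hormone. The precipitates were made from lysates cleared by high-speed centrifugation, and no library of the lysate itself was used here. Each group had 1 library, so no difference below has a replicate check, no test was made, and every ratio describes these 2 libraries.

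Luminal cells line the ducts and lobules of the breast and are the cells in which estrogen and progesterone receptors are made. ESR1 encodes estrogen receptor alpha, which binds DNA when it holds its hormone, and PGR, the progesterone receptor gene, is one of the genes it switches on. FOXA1 opens chromatin for the estrogen receptor, and GATA3 acts with both in luminal cells. RIP reads the mRNAs of these genes on beads, not the proteins and not the activity of the receptors.

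The values are FPKM (sequenced fragments of a gene divided by transcript length and by library size), so that levels can be compared between genes per length, and the depth of each library is unknown. The IMP1 library had 17579 genes above 0 and a summed level of 353885 FPKM, and the IgG library had 11511 genes above 0 and a summed level of 1298363 FPKM. Mitochondrially encoded genes made up 48.4% of the sum in IMP1-RIP and 59.9% in IgG-RIP. The labelled cell type was checked against 17 luminal markers, with KRT8 at 162 FPKM in IMP1-RIP and 76.8 FPKM in IgG-RIP and KRT18 at 143 and 25.8 FPKM. The 10 basal epithelial markers in the table were low in both libraries and summed to 7.57 FPKM in IMP1-RIP and 9.31 FPKM in IgG-RIP. With 0.1 FPKM added to each value, 5 of them were higher by 2-fold or more in IMP1-RIP and 3 lower. Of the 5 higher ones, 4 were listed at 0 in IgG-RIP. Among all genes, 39.9% were higher and 29.9% lower. With 1 FPKM added instead, 1 of the 10 markers was higher and 1 lower. ITGB4 was at 3.75 FPKM in IMP1-RIP and 0.127 FPKM in IgG-RIP, and ACTA2 at 2.36 and 7.79 FPKM. Markers of other cells were higher in sum in IgG-RIP. The 16 mesenchymal markers in the table summed to 3.58 FPKM in IMP1-RIP and 238 FPKM in IgG-RIP. Of 12 blood cell markers looked for, 5 were in the table, and PTPRC, CD3E and LYZ were not. These 5 summed to 7.54 and 327 FPKM, of which CD74 alone made up 6.42 and 305 FPKM. The 15 interferon response genes, which mark a state that many cell types can enter, summed to 159 FPKM in IMP1-RIP and 2470 FPKM in IgG-RIP. The part of these differences in the results below was not tested.

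XBP1 was by far the most abundant of the 9 mRNAs in both precipitates, and GATA3, PGR, FOXA1 and SPDEF followed it in IMP1-RIP. All 9 mRNAs were above 0 in IMP1-RIP and 8 were above 0 in IgG-RIP, where MYB was listed at 0. Together they summed to 522 FPKM in IMP1-RIP and 322 FPKM in IgG-RIP, and XBP1 alone made up 66.2% and 70.2% of these sums. Without the mitochondrial genes, the 9 mRNAs held 0.286% of the summed level in IMP1-RIP and 0.0618% in IgG-RIP. Of the 8 mRNAs above 0 in both, 7 had the higher FPKM in IMP1-RIP, and TFAP2C had the lower. A lower level in a precipitate can come from fewer cells of a type in the lysate, less of the RNA per cell or less of it on the beads, and these cannot be told apart.

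**Figure D1:**
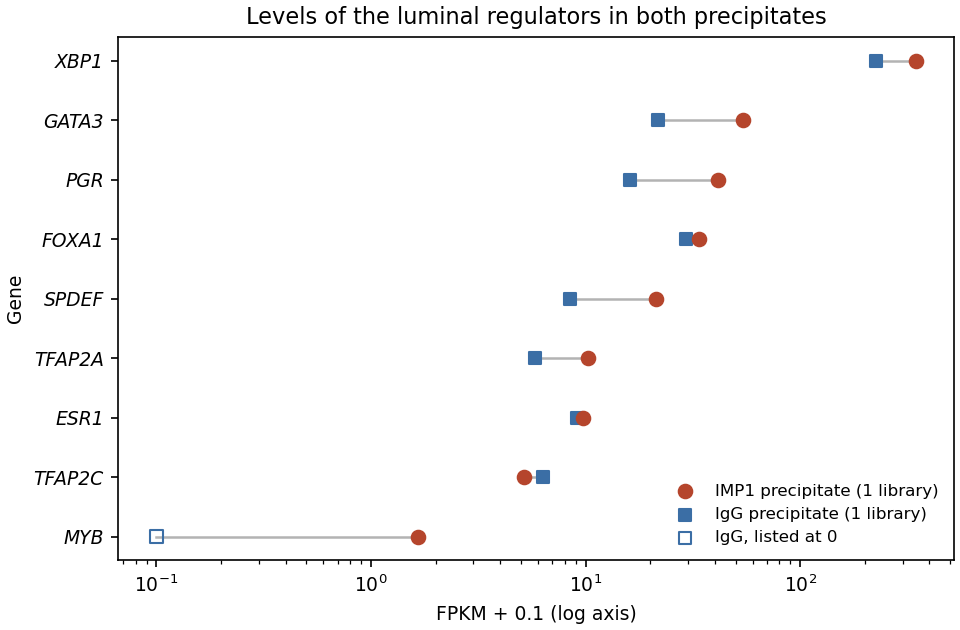
FPKM + 0.1 (log axis) of each of the 9 genes in IMP1-RIP (circles) and the IgG library (squares), 1 library each, with a grey line joining the values of a gene; the open square is a value listed at 0. XBP1 lies far above the others at 345 and 226 FPKM, and TFAP2C is the gene whose circle lies left of its square.

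ESR1 had nearly the same level in both precipitates on the deposited scale. It was at 9.60 FPKM in IMP1-RIP and 9.04 FPKM in IgG-RIP, a log2 ratio of (FPKM + 0.1), IMP1 over IgG, of 0.09. This places it at rank 2291 of all genes by level in IMP1-RIP and at rank 4012 in IgG-RIP. The deposited position is chromosome 6 from 151977826 to 152958936 (hg19), a span of 981 kb that the table gives also for SYNE1, a neighbouring gene of a nuclear envelope protein. SYNE1 was low, at 1.03 FPKM in IMP1-RIP and 0.539 FPKM in IgG-RIP. CCDC170, the nearest gene before ESR1, was at 0.236 and 0.973 FPKM. Where the table gives 2 genes a shared span, as here, reads of both could be told apart only as well as the counting allowed, and strand is not stated in the sources used here.

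PGR, in contrast, was well above its IgG level. It was at 41.4 FPKM in IMP1-RIP and 16.1 FPKM in IgG-RIP, a log2 ratio of 1.36. The deposited position of PGR is chromosome 11 from 100900355 to 101001255. Its neighbours were close to 0, with ARHGAP42 at 0.0482 FPKM in IMP1-RIP and 0.0808 FPKM in IgG-RIP, and TRPC6 at 0.0825 FPKM in IMP1-RIP and listed at 0 in IgG-RIP. Among the receptors, PGR mRNA was thus 4.31 times as abundant as ESR1 mRNA in IMP1-RIP and 1.78 times as abundant in IgG-RIP. This comparison within a library does not depend on how the libraries are scaled against each other.

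GATA3, a zinc finger factor needed for luminal differentiation, stood at 53.7 FPKM in IMP1-RIP and 21.6 FPKM in IgG-RIP, a log2 ratio of 1.31. It lies on chromosome 10 from 8095567 to 8117161. The table lists 3 transcripts at a single position that ends 0.12 kb before GATA3, and all 3 were listed at 0 in IgG-RIP: GATA3-AS1, a non-coding RNA named as antisense to GATA3, at 6.26 FPKM in IMP1-RIP, RP11-379F12.3 at 7.83 FPKM and RP11-379F12.4 at 3.29 FPKM. Because these 3 share their span, their separate values are uncertain.

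FOXA1, the forkhead factor that opens chromatin for the estrogen receptor, had a ratio near that of ESR1. It was at 33.6 FPKM in IMP1-RIP and 29.2 FPKM in IgG-RIP, a log2 ratio of 0.20. Its deposited span, chromosome 14 from 38059189 to 38672128, is shared with TTC6, which was at 3.87 FPKM in IMP1-RIP and 1.99 FPKM in IgG-RIP. FOXA1 was the second member by level in IgG-RIP and the fourth in IMP1-RIP. GATA3 was 1.60 times as abundant as FOXA1 in IMP1-RIP and 0.740 times as abundant in IgG-RIP.

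XBP1 encodes a bZIP factor of the unfolded protein response, the response to misfolded protein in the endoplasmic reticulum, and is high in cells of the estrogen-receptor-positive lineage. Its level was 345 FPKM in IMP1-RIP and 226 FPKM in IgG-RIP, a log2 ratio of 0.61. XBP1 ranked 78 of all genes by level in IMP1-RIP and 155 in IgG-RIP. It lies on chromosome 22 from 29190543 to 29196585, with CTA-292E10.6 starting 0.086 kb after it. That transcript was at 2.24 FPKM in IMP1-RIP and listed at 0 in IgG-RIP.

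SPDEF, an ETS factor of secretory epithelial cells, was at 21.1 FPKM in IMP1-RIP and 8.36 FPKM in IgG-RIP, a log2 ratio of 1.32. It lies on chromosome 6 from 34505579 to 34524110. Its rank among all genes was 1020 in IMP1-RIP and 4200 in IgG-RIP. PGR, GATA3 and SPDEF therefore had ratios within a narrow range. Relative to GATA3 in the same library, PGR was at 0.771 in IMP1-RIP and 0.743 in IgG-RIP, and SPDEF was at 0.392 and 0.387.

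The AP-2 factors TFAP2A and TFAP2C, paralogs that bind the same kind of DNA site, differed in direction on the deposited scale. TFAP2A (chromosome 6 from 10393419 to 10419892) was at 10.1 FPKM in IMP1-RIP and 5.72 FPKM in IgG-RIP, a log2 ratio of 0.81. TFAP2C (chromosome 20 from 55204358 to 55214339) was at 5.09 FPKM in IMP1-RIP and 6.24 FPKM in IgG-RIP, a log2 ratio of -0.29 that turned positive after each rescaling of the libraries described below. The order of both genes was reversed between the libraries, with TFAP2A at 1.99 times the level of TFAP2C in IMP1-RIP and 0.916 times in IgG-RIP. TFAP2A-AS1, listed with the same span as TFAP2A, was low, at 0.432 FPKM in IMP1-RIP and listed at 0 in IgG-RIP.

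MYB, a factor best known from blood progenitors that is also made in estrogen-receptor-positive breast cancer, was the lowest of the 9 mRNAs. It was at 1.56 FPKM in IMP1-RIP and was listed at 0 in IgG-RIP, so no fold is given for it. It lies on chromosome 6 from 135502453 to 135540311. Of the 3016 genes whose IMP1 value was within 1.5-fold of that of MYB, 34.6% were also listed at 0 in IgG-RIP, and their median IgG level was 1.17 FPKM. The neighbour HBS1L was at 8.95 FPKM in IMP1-RIP and 10.2 FPKM in IgG-RIP.

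**Figure D2:**
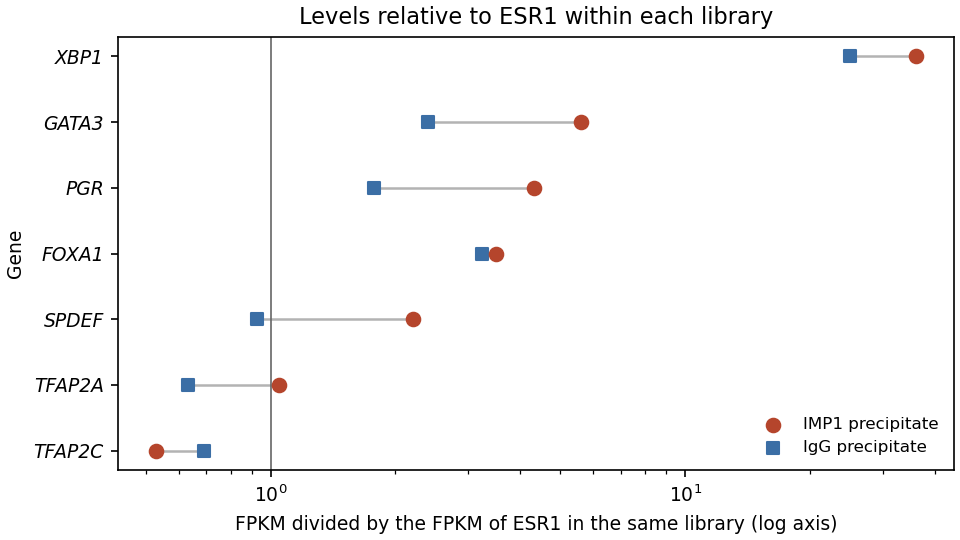
FPKM of 7 of the genes divided by the FPKM of ESR1 in the same library (log axis), in IMP1-RIP (circles) and the IgG library (squares); ESR1 is 1 by construction and MYB, listed at 0 in IgG-RIP, is left out. GATA3 lies at 5.60 in IMP1-RIP and 2.39 in IgG-RIP, while FOXA1 lies at 3.50 and 3.23.

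Within IMP1-RIP the order of levels was XBP1, GATA3, PGR, FOXA1, SPDEF, TFAP2A, ESR1, TFAP2C and MYB. In IgG-RIP the order was XBP1, FOXA1, GATA3, PGR, ESR1, SPDEF, TFAP2C, TFAP2A and MYB. With 1 library per group there is no spread against which neighbours in either order could be set apart. XBP1 aside, the members of the IMP1 library covered 1.56 to 53.7 FPKM, and the highest of all 9 was 222 times the lowest. The order of the factors relative to ESR1 changed for SPDEF, at 2.20 times ESR1 in IMP1-RIP and 0.925 times in IgG-RIP, and for TFAP2A, at 1.05 and 0.632 times.

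The 9 mRNAs were next set against all genes. With a pseudocount of 0.1 FPKM, 4 of the 9 were higher by 2-fold or more in IMP1-RIP (PGR, SPDEF, GATA3 and MYB) and 0 were lower by 2-fold or more. Among all 18781 genes, 39.9% were higher by 2-fold or more and 29.9% lower by 2-fold or more, so the share of higher members was near the background. Of the 7488 higher genes, 5681 were listed at 0 in IgG-RIP. Among the 6909 genes with 1 FPKM or more in both, 11.5% were higher by 2-fold or more and 44.0% lower by 2-fold or more. Of the 8 members at this level, 3 were higher, 0 were lower and 5 lay within 2-fold. Among the 2952 genes with 5 FPKM or more in both, a limit chosen after the values were seen and passed by the same 8 members, 9.49% were higher by 2-fold or more and 36.1% lower by 2-fold or more.

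The median log2 ratio was 0.81 over the 9 members and 0.40 over all genes. Among genes with 1 FPKM or more in both it was 0.71 over 8 members and -0.78 over all 6909 genes. All 8 members lay above that median of -0.78. PGR had a higher ratio than 92.7% of these genes, SPDEF than 92.2% and GATA3 than 92.0%. TFAP2A had a higher ratio than 85.9% of them and XBP1 than 82.9%. FOXA1, ESR1 and TFAP2C lay nearer the middle, above 74.7%, 72.0% and 63.0% of these genes.

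**Figure D3:**
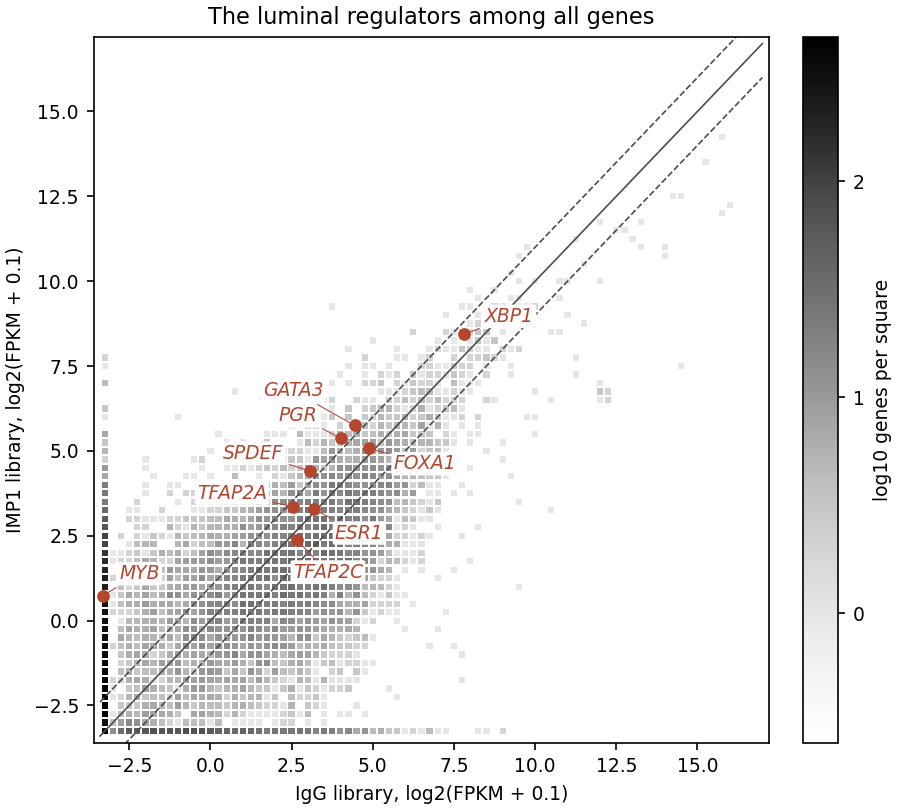
All 18781 genes by log2(FPKM + 0.1) in IgG-RIP (horizontal) and the IMP1 library (vertical), as squares shaded by the number of genes, with the 9 luminal regulators as red points. The solid line marks equal values and the dashed lines 2-fold; PGR, GATA3 and SPDEF lie above the upper dashed line, and MYB lies at the left edge, where the IgG value is 0.

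Because a difference in scale between the libraries shifts every ratio alike, the members were also read after rescaling the IMP1 values. Setting the median ratio of genes with 1 FPKM or more in both to 1 is a log2 shift of 0.79. After it, 6 of the 9 members were higher by 2-fold or more, as were 49.3% of all genes. Setting the sums without mitochondrial genes equal is a shift of 1.51, and setting the whole sums equal is a shift of 1.88. After either of these, all 9 members were higher by 2-fold or more, as were 59.2% and 63.7% of all genes. ESR1, at 0.09 on the deposited scale, had a log2 ratio of 0.87, 1.59 and 1.95 on these scales, and TFAP2C had 0.49, 1.21 and 1.57. Whether ESR1, FOXA1 and TFAP2C were level between the precipitates or higher in IMP1-RIP thus depended on the scale.

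**Figure D4:**
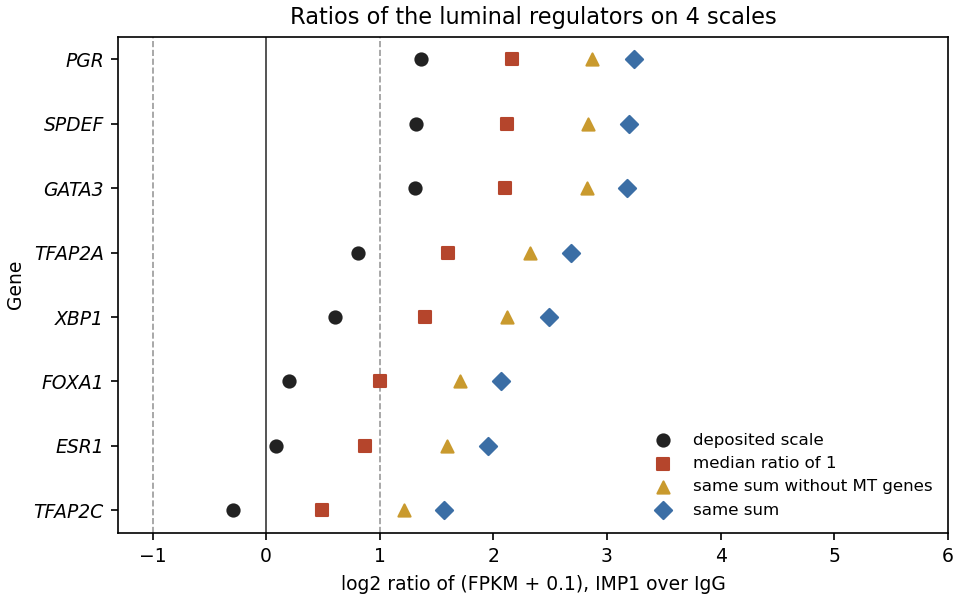
Log2 ratio of (FPKM + 0.1), IMP1 over IgG, of the 8 genes above 0 in both libraries on the deposited scale and after 3 rescalings of the IMP1 values; dashed lines mark 2-fold. PGR, SPDEF and GATA3 lie past 2-fold on each scale, and TFAP2C moves from -0.29 to 1.57.

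Other transcription factors of luminal epithelium covered a range of log2 ratios from -2.25 for ZNF217 to 2.73 for EHF among those above 0 in both libraries, against -0.29 to 1.36 for the 8 members. Of the 24 in the table, 12 were higher by 2-fold or more in IMP1-RIP, 6 of them listed at 0 in IgG-RIP, 4 were lower by 2-fold or more, and the median log2 ratio was 0.95. Among all genes, 39.9% were higher and 29.9% lower. Among the 15 with 1 FPKM or more in both the median was 0.06, with 5 higher and 2 lower. At that level 11.5% of all genes were higher and 44.0% lower, and of the 8 members 3 were higher and 0 lower. TRPS1, a GATA-type repressor of luminal cells, was the highest of the list, at 79.6 FPKM in IMP1-RIP and 94.4 FPKM in IgG-RIP. GRHL2, a factor of epithelial junction genes, was at 15.1 and 14.6 FPKM, and RARA, a retinoic acid receptor, at 11.4 and 19.1 FPKM. ZNF217 lay lower in IMP1-RIP, at 5.74 FPKM against 27.7 FPKM in IgG-RIP.

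The other nuclear receptors, the family to which ESR1 and PGR belong, were mostly low. Of the 31 in the table, 13 were higher by 2-fold or more in IMP1-RIP, 10 of these listed at 0 in IgG-RIP, and 10 were lower by 2-fold or more. Among all genes, 39.9% were higher and 29.9% lower. With 1 FPKM or more in both 12 were left, of which 1 was higher and 6 were lower, with a median log2 ratio of -1.12. These counts were near the 11.5% higher and 44.0% lower of all genes at that level, whose median was -0.78. NR2F2 was at 12.2 FPKM in IMP1-RIP and 7.09 FPKM in IgG-RIP, and NR2C1 was at 6.01 and 28.2 FPKM. ESRRA, the orphan receptor related to ESR1, was at 2.96 FPKM in IMP1-RIP and 24.0 FPKM in IgG-RIP. ESR2, which encodes estrogen receptor beta, was at 0.210 FPKM in IMP1-RIP and listed at 0 in IgG-RIP. The log2 ratio of ESRRA, -2.98, was on the other side of 0 from those of ESR1 and PGR on the deposited scale.

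Genes that work with the receptors lay on both sides of 0. Of 26 coregulators, which join receptors to chromatin enzymes, 7 were higher by 2-fold or more, 6 were lower and the median log2 ratio was -0.09. Among all genes, 39.9% were higher and 29.9% lower. Of the 18 coregulators with 1 FPKM or more in both, 1 was higher and 5 were lower, with a median of -0.66. At that level 11.5% of all genes were higher and 44.0% lower, with a median of -0.78. DDX5, an RNA helicase that also acts as a coactivator, was at 34.3 FPKM in IMP1-RIP and 136 FPKM in IgG-RIP, while the corepressor TLE3 was at 15.1 and 14.4 FPKM. NCOA4, a nuclear receptor coactivator, was at 13.0 FPKM in IMP1-RIP and 25.0 FPKM in IgG-RIP. Of 12 chaperones that hold steroid receptors ready for hormone, 3 were higher and 5 were lower, with a median of -0.77. All 12 had 1 FPKM or more in both, so the same 11.5% and 44.0% of all genes stand beside them. HSPA8 was at 332 FPKM in IMP1-RIP and 248 FPKM in IgG-RIP, and HSP90AA1 at 33.3 and 103 FPKM. PPID was at 1.72 FPKM in IMP1-RIP and 27.0 FPKM in IgG-RIP. After setting the median ratio to 1, the medians were 0.69 for the coregulators and 0.02 for the chaperones, the latter practically level. Both medians were above 0 with equal sums, with or without mitochondrial genes.

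The partners of XBP1 in the unfolded protein response were lower in IMP1-RIP about as often as other genes of a like level. Of 20 such genes, 2 were higher by 2-fold or more in IMP1-RIP and 10 were lower by 2-fold or more, beside 39.9% and 29.9% of all genes. Their median log2 ratio was -1.12 against 0.61 for XBP1. Of the 18 with 1 FPKM or more in both, 9 were lower and 1 was higher, near the 44.0% and 11.5% of all genes at that level, whose median was -0.78. The higher ones were CALR, a chaperone of the endoplasmic reticulum, at 275 FPKM in IMP1-RIP and 118 FPKM in IgG-RIP, and WFS1 at 11.2 and 0.560 FPKM. HSPA5, the main chaperone there, was at 38.0 and 102 FPKM, and ATF4, a factor of the stress response, at 33.9 and 83.1 FPKM. DDIT3, a factor made under prolonged stress, was at 3.64 FPKM in IMP1-RIP and 97.2 FPKM in IgG-RIP. ERN1, the kinase and nuclease that splices XBP1 mRNA, was at 0.457 and 1.42 FPKM, and gene-level values do not show which form of XBP1 mRNA was present.

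Transcription factors that most cell types make served as a comparison for mRNAs of this class. Of 30, 4 were higher by 2-fold or more in IMP1-RIP and 18 were lower by 2-fold or more, beside 39.9% and 29.9% of all genes. Their median log2 ratio was -1.08. Of the 27 with 1 FPKM or more in both, 17 were lower and 3 were higher, beside the same 44.0% and 11.5% of all genes. MAX was at 23.2 FPKM in IMP1-RIP and 49.8 FPKM in IgG-RIP, and HSF1 at 7.37 and 30.7 FPKM. MAZ was at 34.7 and 21.3 FPKM. The medians of these factors and of the unfolded protein response genes were below 0 also after setting the median ratio to 1, at -0.29 and -0.33, and above 0 after setting the sums equal. The median of the 9 members was the higher on each of these scales, as a description of 2 libraries.

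**Figure D5:**
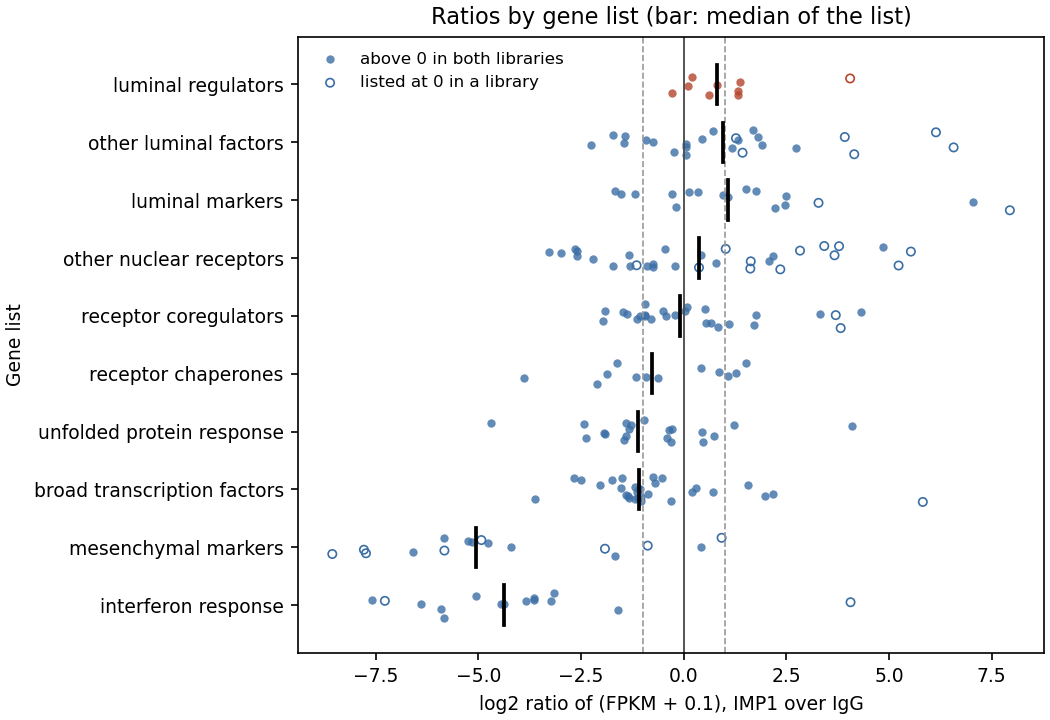
Log2 ratio of (FPKM + 0.1), IMP1 over IgG, of each gene in 10 lists, with a black bar at the median of each list; open circles are genes listed at 0 in a library, whose position depends on the pseudocount, and dashed lines mark 2-fold. The luminal regulators (red) have a median of 0.81, the broad transcription factors of -1.08 and the mesenchymal markers of -5.05.

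Markers of luminal epithelium lay on both sides of 0, with more of them higher in IMP1-RIP. Of 17 in the table, 9 were higher by 2-fold or more in IMP1-RIP and 3 were lower by 2-fold or more, with a median log2 ratio of 1.08, beside 39.9% and 29.9% of all genes. Of the 14 with 1 FPKM or more in both, 6 were higher and 3 were lower, with a median of 0.64, beside 11.5% and 44.0% of all genes at that level. AGR2, a secretory pathway protein, was at 595 FPKM in IMP1-RIP and 207 FPKM in IgG-RIP, and KRT19 at 371 and 78.8 FPKM. TFF3 was at 24.4 FPKM in IMP1-RIP and listed at 0 in IgG-RIP, and CLDN4, a tight junction protein, was at 64.7 and 0.393 FPKM. The 3 lower ones were CLDN7, another tight junction protein, at 32.4 FPKM in IMP1-RIP and 74.3 FPKM in IgG-RIP, the epithelial splicing factor ESRP1 at 8.62 and 25.0 FPKM, and MLPH at 7.16 and 23.0 FPKM. Mesenchymal markers had the opposite ratio, with 0 of 16 higher by 2-fold or more and 13 lower, and FN1 at 1.30 FPKM in IMP1-RIP against 79.7 FPKM in IgG-RIP. DCN and LUM were listed at 0 in IMP1-RIP and were at 37.5 and 22.0 FPKM in IgG-RIP. Of the interferon response genes, 14 of 15 were lower by 2-fold or more in IMP1-RIP, and the exception was IRF7, listed at 0 in IgG-RIP. The part of RNA from other cells, or of a different state of the cells, in the ratios of the luminal regulators was not tested.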

How the data were processed

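RNA from 1 IMP1 and 1 IgG precipitate of T47D cells was sequenced by a company, and the authors deposited FPKM values per gene. The build was hg19 according to the submitters' processing notes, and the aligner, the FPKM software and the annotation are not given in the sources used here. The start in the deposited positions counts from 0, so 1 was added. The table writes an exact zero as 1e-05, which was read as 0; 346 values in IMP1-RIP and 228 in IgG-RIP lay above 0 but below 1e-05. The authors' fold changes, p-values and calls were not used. The log2 ratio of (FPKM + 0.1), IMP1 over IgG, was computed for all 18781 genes, which compresses the differences of genes near 0, and 2-fold was the threshold. No test was made with 1 library per group. Counting was tested on simulated data. The 9 genes and 14 further lists were chosen with earlier results of these data known. Beside the 9 genes and rows overlapping or next to them, genes were named from the 4 of each list with the highest mean FPKM, those over 8-fold apart on both sides of 10 FPKM and the list gene nearest to each of the 9, of which 1 is not reported here; ESR2, EHF, ERN1, CLDN7, ESRP1, MLPH, GATA2 and TFAP2B were chosen after their values were seen. Python 3.11.15, numpy 2.4.6, pandas 2.3.3 and matplotlib 3.10.9 were used.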

Additional observations from a re-analysis of the deposited data

How the results depend on the processing

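No paired analysis was possible because each group has 1 library, and for the same reason none could be left out. The number of members higher by 2-fold or more, 4, stayed between 3 and 6 with pseudocounts of 1 and 0.01, with both filters on low values, with a 1.5-fold threshold and after setting the median ratio to 1. The share of all genes past the same thresholds ran from 11.5% to 49.3% over these settings. The number of members was 9 after setting the whole sums equal and 9 after setting the sums without mitochondrial genes equal. Beside these stood 63.7% and 59.2% of all genes. At a 4-fold threshold it was 1, beside 26.1% of all genes. That gene was MYB, listed at 0 in IgG-RIP, so its place there rests on the pseudocount. The number lower by 2-fold or more was 0 under each of these alternatives. The median log2 ratio of the members, 0.81, was 0.71 among genes with 1 FPKM or more in both, 1.60 after setting the median ratio to 1, 2.32 with equal sums without mitochondrial genes and 2.68 with equal whole sums. These changes follow from the scale, filter or threshold itself. Among the lists, the median of the paralogs, 1.04, was -2.23 among those with 1 FPKM or more in both, where 4 of 14 were left. The median of the unfolded protein response genes, -1.12, was 0.39 and 0.75 with equal sums without and with mitochondrial genes, and that of the broadly expressed factors, -1.08, was 0.42 and 0.79. The depth of the libraries is unknown, so values near 0 carry no stated precision.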

Other observations

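Closer relatives of the 9 genes were mostly low in both precipitates. Of 14 paralogs in the table, 8 were higher by 2-fold or more in IMP1-RIP, 7 of them listed at 0 in IgG-RIP, and 4 were lower by 2-fold or more. Among all genes, 39.9% were higher and 29.9% lower. The MYB family went both ways on the deposited scale: MYBL2, a factor of dividing cells, was at 17.9 FPKM in IMP1-RIP and 5.31 FPKM in IgG-RIP, while MYBL1 was at 4.56 and 16.2 FPKM. GATA2 was at 1.61 FPKM in IMP1-RIP and TFAP2B at 0.750 FPKM, and both were listed at 0 in IgG-RIP.

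Factors of other lineages were mostly low in both precipitates. Of 11 basal and mesenchymal factors in the table, 3 were higher by 2-fold or more and 5 were lower by 2-fold or more. Beside these counts, 39.9% of all genes were higher and 29.9% lower. ZEB2, a repressor of epithelial genes, was listed at 0 in IMP1-RIP and was at 21.3 FPKM in IgG-RIP. SOX9 was at 3.27 FPKM in IMP1-RIP and 12.6 FPKM in IgG-RIP, while TEAD1 was at 1.91 and 0.282 FPKM. Of 14 blood lineage factors looked for, 4 were in the table, and 3 of these were lower by 2-fold or more. LMO2 was at 0.0463 FPKM in IMP1-RIP and 7.98 FPKM in IgG-RIP. EOMES and FLI1 were listed at 0 in IMP1-RIP and were at only 0.210 and 0.138 FPKM in IgG-RIP. With a pseudocount of 1, 1 of the 4 factors was lower. Of 5 blood cell markers in the table, 3 were lower by 2-fold or more, with CD74 at 6.42 and 305 FPKM.

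Among the genes of the lists, the one nearest to a member by its log2(FPKM + 0.1) in both libraries was MYC for ESR1, FKBP4 for PGR, CDH1 for FOXA1 and HSPA8 for XBP1. It was BHLHE40 for SPDEF, PHB2 for TFAP2A, RUNX1 for TFAP2C and IRF7 for MYB. The distances, over 2 libraries, ran from 0.0038 for MYB to 0.35 for ESR1 on the log2 scale. MYB and IRF7 were both listed at 0 in IgG-RIP, so their distance rests on the IMP1 values alone, 1.558 and 1.563 FPKM.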
